A study of Rattus norvegicus with 12 samples.

Results

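The genes described are 47 lysosomal hydrolases and lysosomal membrane proteins, found by symbol from a fixed list. The list was proposed with earlier results of these data known, so the counts below are descriptions of it and not independent evidence. The gene tables held 46 of them among 22850 features, and Hgsnat was not analysed here. They were measured by RNA sequencing of primary atrial fibroblasts of newborn Sprague-Dawley rats, which had been separated from other atrial cells by differential adhesion and not by sorting. All 3 groups, of 4 libraries each, received angiotensin II (AngII), a hormone that activates fibroblasts, at 1 µmol/L for 48 h. The AngII group received nothing else, the AngII+HNG group was also given 10 µmol/L HNG, a glycine-substituted analog of the mitochondrial-derived peptide humanin, and the AngII+MOTS-c group 5 µmol/L of the mitochondrial-derived peptide MOTS-c, each added 1 h before AngII. No group without AngII was among the libraries, so every value below is from AngII-treated cells.

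Lysosomes are acidic compartments in which proteins, glycans, lipids and nucleic acids delivered by endocytosis and autophagy are broken down. Their hydrolases are tagged with mannose 6-phosphate in the Golgi and sorted to the lysosome, whose membrane is lined with heavily glycosylated proteins and is acidified by the V-ATPase proton pump. TFEB and its relatives TFE3 and MITF are transcription factors that bind E-box sequences with the core CACGTG near many lysosomal genes. In the heart, fibroblast cathepsins are also known for the turnover of collagen and other matrix proteins.

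The E-box core CACGTG was searched for in the RefSeq promoter windows of the rat build GRCr8, which span 250 bases before and 50 bases from each start site on. A window was given for 38 of the 47 genes. CACGTG, which reads the same on both strands, was present in 10 of these 38 windows (26.3%), against 6.63% of all 27457 windows in the table and 9.18% of the 10926 windows that belong to genes tested in AngII+HNG against AngII. The genes with it were Lamp1 (5 copies), Ctsd and Mcoln1 (2 copies each), Ctsf, Galc, Cd63, Glb1, Gaa, Sgsh and Idua. Upstream stretches of 6 of them are printed below, 5′ to 3′ along the gene's strand with CACGTG in capitals, as examples of genes with several copies (Lamp1, Ctsd and Mcoln1), of single-copy genes that rose with HNG (Gaa and Sgsh) and of 1 that did not pass the test (Galc). Lamp1 is at chr16:83075064-83075253 (minus strand), Ctsd at chr1:206968822-206968986 (minus strand), Gaa at chr10:105028264-105028317 (plus strand), Sgsh at chr10:105112017-105112070 (minus strand), Galc at chr6:123245560-123245603 (minus strand) and Mcoln1 at chr12:6358212-6358257 (plus strand). All of the printed bases lie upstream of the start site in the table, so the Mcoln1 copy that begins at position 5 after it is not shown.
Lamp1: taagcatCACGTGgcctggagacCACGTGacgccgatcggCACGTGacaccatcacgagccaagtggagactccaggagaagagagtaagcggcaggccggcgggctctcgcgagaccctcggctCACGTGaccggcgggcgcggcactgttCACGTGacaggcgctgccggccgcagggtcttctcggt
Ctsd: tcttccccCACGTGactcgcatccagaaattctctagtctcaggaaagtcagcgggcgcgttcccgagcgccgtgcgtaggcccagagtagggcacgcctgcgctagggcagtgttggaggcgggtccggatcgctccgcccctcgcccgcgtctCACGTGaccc
Gaa: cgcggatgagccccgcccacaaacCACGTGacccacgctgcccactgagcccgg
Sgsh: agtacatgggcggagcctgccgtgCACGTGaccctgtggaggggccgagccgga
Galc: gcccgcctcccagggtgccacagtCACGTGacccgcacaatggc
Mcoln1: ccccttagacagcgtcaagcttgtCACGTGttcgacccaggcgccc
A match is a description of these letters and not a measured binding site. The Lamp1 copies begin at positions -183, -167, -150, -65 and -38 from the start site, and those of Ctsd at -157 and -10. For 19 of the 38 genes this start site lay within 1 base of the gene boundary. The positions, and whether a copy falls in the window, depend on the start site used.

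The libraries held 27960586 to 38322354 counts assigned to genes. Levels are given as CPM, the count of a gene divided by the library's total and multiplied to a common size, scaled by the TMM method when libraries are compared for a gene, and as the deposited FPKM, which is per gene length, when genes are compared with each other. Means are ± SD over n = 4 libraries, fold changes are log2 values ± SE, and adjusted p-values come from the quasi-likelihood test of edgeR, adjusted by the Benjamini-Hochberg method over all genes tested, with a threshold of 0.05. The study describes the libraries of a group as biological replicates. The labels do not say whether they came from separate cultures, and replicates 2 and 3 of each group share a number in their library names, so the p-values measure the spread between these libraries, part of which may be technical. Pairs of libraries were also compared by a chi-square per gene, which grows with their difference. Replicates 2 and 3 gave 4.40 in AngII, 14.3 in AngII+HNG and 6.79 in AngII+MOTS-c. AngII+HNG replicate 3 gave 14.3 to 19.4 against the rest of its group, which gave 5.31 to 8.89 among themselves. The 12 fibroblast markers summed to between 73278 and 81047 CPM in every library. Transcripts of cardiomyocyte markers were present as well, with 10 genes summing to 5218 to 7059.6 CPM.

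Levels of the 46 genes spanned a wide range. Cd63, a tetraspanin of late endosomes and lysosomes, had the highest level with 545 ± 18.5 FPKM in the AngII group. It was followed by Psap, the precursor of the saposins that help enzymes reach their lipid substrates, at 369 ± 4.51 FPKM and by the cysteine protease Ctsl at 346 ± 11.0 FPKM. At the other end were Acp5, a tartrate-resistant acid phosphatase, at 2.30 ± 0.357 FPKM and Sgsh, a heparan sulfamidase, at 3.77 ± 0.0572 FPKM. Even Acp5 was covered by 118 to 196 counts per library, and all 46 genes passed the filter on low counts in all 3 comparisons.

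**Figure D1:**
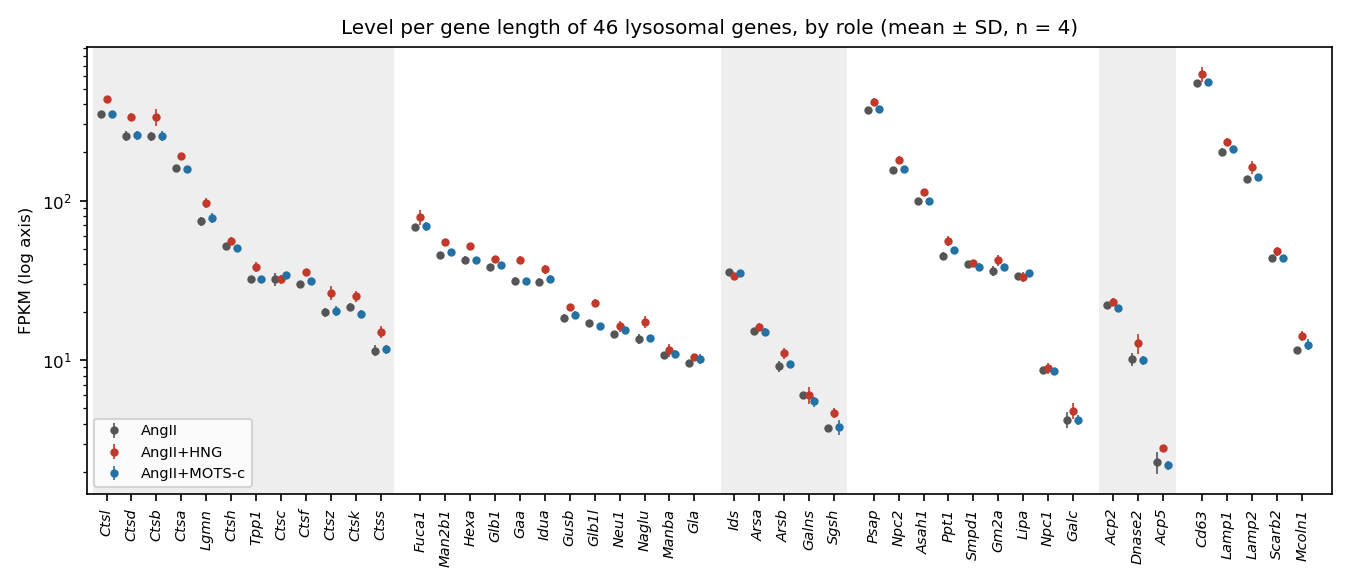
FPKM on a log axis for the 46 lysosomal genes, grouped by role on alternating shading (from the left: proteases, glycosidases, sulfatases, lipid handling, phosphatases and nuclease, membrane proteins). Points are means over 4 libraries and lines are SD, in grey for AngII, red for AngII+HNG and blue for AngII+MOTS-c, and levels run from Acp5 at 2.30 FPKM to Cd63 at 545 FPKM in the AngII group.

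The comparison of AngII+HNG with AngII asks which of these transcripts differ when HNG is added to AngII. Of the 46 genes, 22 rose (47.8%) and 0 fell at edgeR adjusted p below 0.05, against 3.40% of all 14524 genes tested rising and 2.58% falling (5.98% in either direction). Log2 fold changes were above 0 for 43 genes, against 51.3% of all genes, and ran from -0.10 to 0.41 with a median of 0.20, which is a median fold of 1.15, against a median of 0.0043 over all genes. In 26 genes every AngII+HNG library was above every AngII library, and in 0 every one was below, against 7.02% and 6.56% of all genes. At an unadjusted p below 0.05 there were 37 genes, against 20.3% of all genes. The count of 22 fell to 13 without AngII replicate 1 and to 14 without AngII replicate 3, and no gene was called lower in either case. Over all genes, 254 and 283 rose in these fits, against 494.

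The summed level of the 46 genes was 6741, 6821, 6825 and 7273 CPM in AngII replicates 1 to 4, 7762, 7879, 8245 and 8359 CPM with HNG, and 6880.1, 6736, 6972 and 7241 CPM with MOTS-c. The 4 AngII+HNG libraries were above all others, and the AngII and AngII+MOTS-c libraries overlapped. Mean sums were 16.6% higher with HNG than with AngII alone, and 0.610% higher with MOTS-c. By role, the excess with HNG was 24.3% for the proteases, 19.0% for the glycosidases, 13.6% for the membrane proteins, 10.5% for lipid handling, 9.94% for the phosphatases and nuclease and 0.338% for the sulfatases. Replicate 4 was the highest of its group for 37 of the 46 genes in AngII, for 23 in AngII+HNG and for 30 in AngII+MOTS-c, and without number 4 in both groups 17 genes rose with HNG, and 319 over all genes, against 494.

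**Figure D2:**
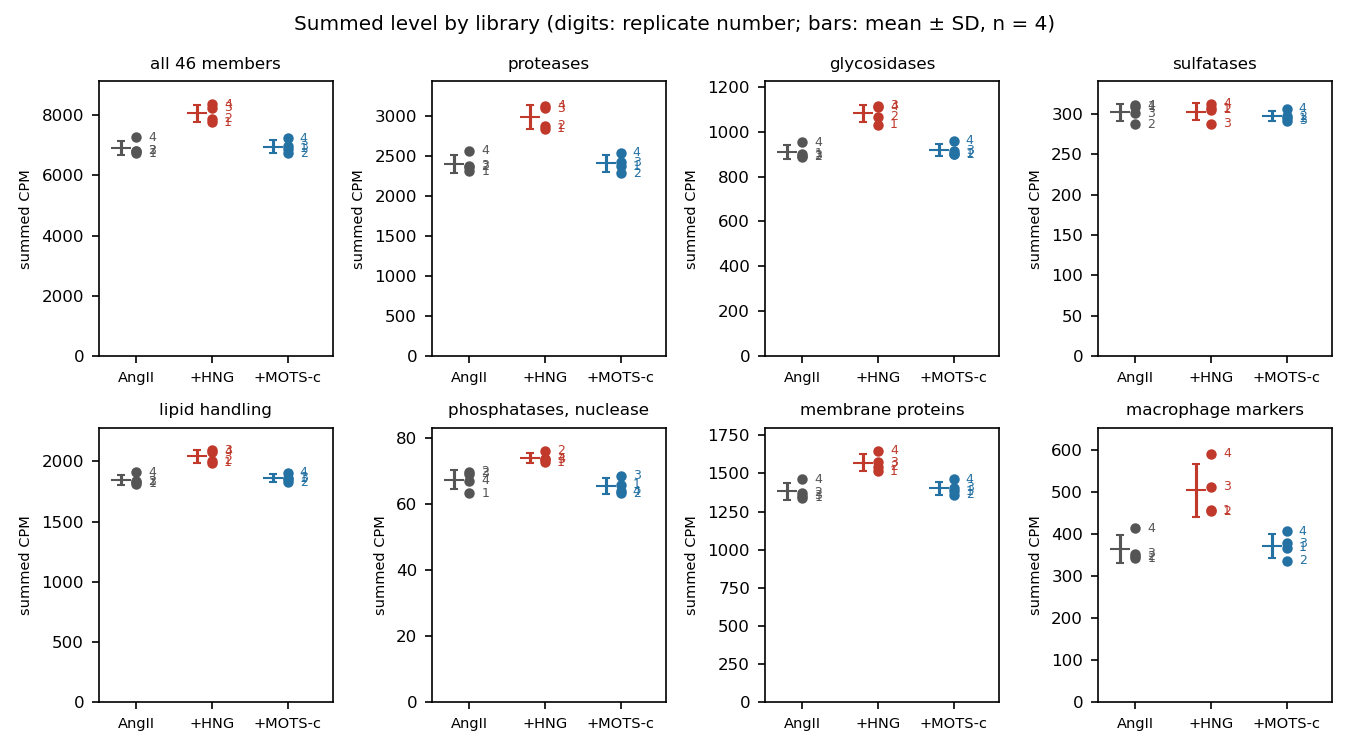
Summed CPM per library (y axis, from 0) of all 46 lysosomal genes, of each role and of 18 macrophage markers, in the 3 groups on the x axis; points are libraries with their replicate number, and bars are mean ± SD over 4 libraries. The AngII+HNG libraries lie between 7762 and 8359 CPM for all members, above the 6741 to 7273 CPM of AngII, while the sulfatase sums overlap in all 3 groups.

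By share of genes called, proteases came first among the 6 roles. Of 12 measured, 9 rose with HNG (75.0%) and 0 fell, and their median log2 fold change was 0.28. Ctsl, a cysteine protease of the papain family, had 476, 508, 505 and 514 CPM in AngII and 623, 603, 640.3 and 616 CPM in AngII+HNG. The lowest AngII+HNG library was thus well above the highest AngII library, and the log2 fold change was 0.31 ± 0.038 (edgeR adjusted p = 5.7e-04). With MOTS-c, Ctsl had 487, 495, 499 and 517 CPM, which overlapped with AngII alone.

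Ctsd, the main aspartic protease of the lysosome, had 512, 509, 522 and 591 CPM in AngII, 657, 667, 690.0 and 749 CPM in AngII+HNG, and 529, 495, 533 and 584 CPM in AngII+MOTS-c. Replicate 4 stood highest in each group, and the AngII+HNG libraries did not overlap with the others. The log2 fold change with HNG was 0.37 ± 0.056 (edgeR adjusted p = 0.0020). Ctsa is a carboxypeptidase that also shields beta-galactosidase and neuraminidase from degradation. Its levels were 331, 331, 326 and 344 CPM in AngII, 379, 395, 388 and 414 CPM in AngII+HNG, and 313, 331, 334 and 337 CPM in AngII+MOTS-c. Here too the AngII+HNG libraries lay above all others, with a log2 fold change of 0.24 ± 0.038 (edgeR adjusted p = 0.0028).

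The other 6 proteases that rose were the cathepsins Ctsb, Ctsz, Ctss and Ctsf, the asparaginyl endopeptidase Lgmn and the tripeptidyl peptidase Tpp1, with log2 fold changes of 0.39, 0.38, 0.37, 0.24, 0.36 and 0.23. The Ctss call was lost without AngII replicate 1 (edgeR adjusted p = 0.057) and just held without AngII replicate 2 (0.0495). The Tpp1 call was lost in 7 of 23 alternatives, and without AngII replicates 1, 2 and 3 in turn its edgeR adjusted p was 0.088, 0.065 and 0.069. Ctsk, a strong collagenase of the same family, did not pass the test. It had 30.4, 31.6, 32.7 and 34.5 CPM in AngII and 36.2, 34.1, 40.5 and 36.6 CPM in AngII+HNG, so the groups overlapped, with a log2 fold change of 0.19 ± 0.062 (edgeR adjusted p = 0.098). Ctsh, an aminopeptidase, had a log2 fold change of 0.10 (edgeR adjusted p = 0.27). Ctsc, which activates serine proteases of immune cells, stood apart from the other proteases. It had 73.3, 70.3, 67.0 and 81.6 CPM in AngII and 76.4, 67.8, 65.2 and 74.6 CPM in AngII+HNG, with a log2 fold change of -0.04 and a 95% interval of -0.18 to 0.10.

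Glycosidases, which trim sugars from glycoproteins, glycolipids and glycosaminoglycans, had the next highest share called. All 12 had a log2 fold change above 0, 7 rose with HNG (58.3%) and 0 fell, with a median of 0.23. Glb1l, a relative of beta-galactosidase, had 74.9, 73.0, 71.1 and 76.3 CPM in AngII, 94.7, 102, 91.7 and 98.6 CPM in AngII+HNG, and 68.1, 75.2, 69.7 and 70.2 CPM in AngII+MOTS-c. No AngII+HNG library overlapped with another group. Its log2 fold change was 0.39 ± 0.043, and its edgeR adjusted p of 3.4e-04 was the smallest among the 46 genes.

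Gaa, the acid alpha-glucosidase that degrades lysosomal glycogen, had 111, 106, 110.0 and 120.3 CPM in AngII, 139, 146, 148 and 158 CPM in AngII+HNG, and 105, 109, 110.0 and 117 CPM in AngII+MOTS-c. The AngII+HNG libraries were again above all 8 others. At 0.41 ± 0.050, its log2 fold change was the largest of the 46 genes (edgeR adjusted p = 5.8e-04). Man2b1, an alpha-mannosidase of glycoprotein breakdown, had 149.6, 147, 148 and 156 CPM in AngII, 175, 173, 189 and 182 CPM in AngII+HNG, and 156, 149.8, 156 and 159.8 CPM in AngII+MOTS-c. The AngII+HNG libraries did not overlap with the others, and the log2 fold change was 0.26 ± 0.041 (edgeR adjusted p = 0.0029).

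Hexa encodes the alpha subunit of beta-hexosaminidase. It had 77.7, 77.6, 77.6 and 86.8 CPM in AngII, 92.0, 96.4, 100 and 94.9 CPM in AngII+HNG, and 76.0, 77.7, 76.8 and 83.6 CPM in AngII+MOTS-c. AngII replicate 4 was above the rest of its group but below every AngII+HNG library, and the log2 fold change was 0.26 ± 0.048 (edgeR adjusted p = 0.0063). Naglu, Idua and Glb1 were the other glycosidases that rose, by log2 fold changes of 0.35, 0.26 and 0.14. The Idua call was lost in 7 and the Glb1 call in 10 of 23 alternatives, with edgeR adjusted p of 0.063, 0.061 and 0.059 for Idua and 0.13, 0.12 and 0.11 for Glb1 without AngII replicates 1, 2 and 3 in turn. The Glb1 call was also lost without AngII+HNG replicate 1, 2 or 4 (edgeR adjusted p = 0.0503, 0.058 and 0.086). Naglu and Idua act on heparan sulfate, and Glb1 is the acid beta-galactosidase. Fuca1, an alpha-fucosidase with the highest FPKM of this role, had 107, 106, 109 and 109 CPM in AngII and 112, 119.8, 139.7 and 116 CPM in AngII+HNG. The groups did not overlap, but AngII+HNG replicate 3 was far above the other 3, and the log2 fold change of 0.18 ± 0.060 did not pass (edgeR adjusted p = 0.11). For Neu1, a neuraminidase, 27.8 to 31.4 CPM in AngII overlapped with 30.6 to 35.8 CPM in AngII+HNG (log2 fold change 0.15, edgeR adjusted p = 0.19).

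**Figure D3:**
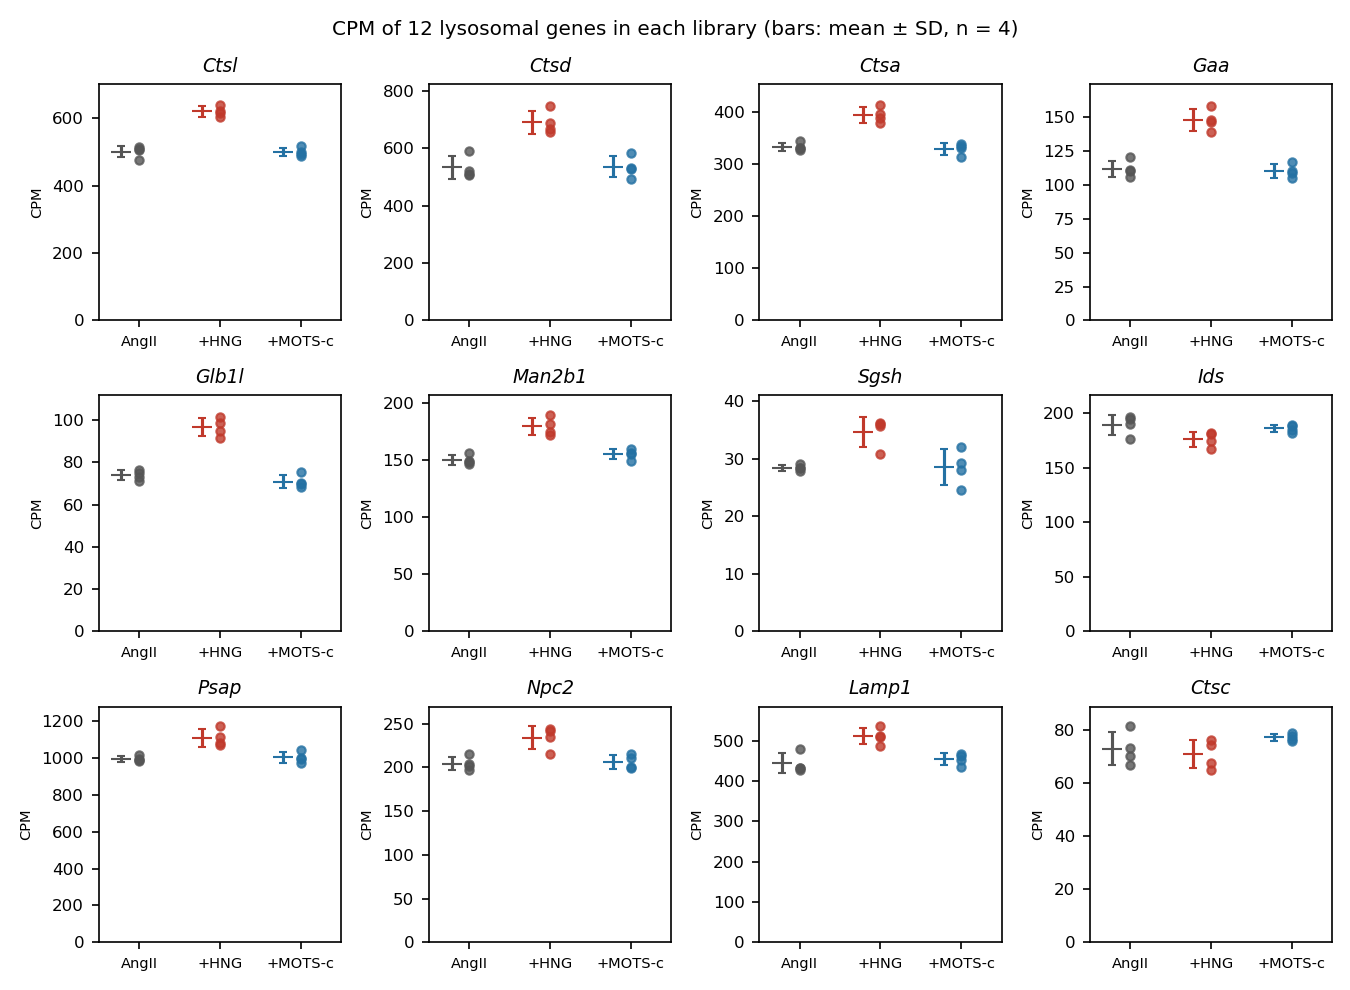
CPM of 12 lysosomal genes in each library (y axes from 0) for the 3 groups on the x axis; points are libraries and bars are mean ± SD over 4 libraries. The AngII+HNG points of Ctsl, Ctsd, Ctsa, Gaa, Glb1l, Man2b1 and Lamp1 are above all points of the other groups, while those of Ids and Ctsc are not.

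Sulfatases remove sulfate from glycosaminoglycans and sulfolipids. Of 5 measured, 1 rose and 0 fell, with a median log2 fold change of 0.11, the lowest of the 6 roles. Sgsh had 28.4, 27.8, 28.3 and 29.0 CPM in AngII, 36.0, 35.8, 30.7 and 36.2 CPM in AngII+HNG, and 29.3, 24.6, 28.0 and 32.1 CPM in AngII+MOTS-c. AngII+HNG replicate 3 was the low library of its group but still above all of AngII. The log2 fold change was 0.29 ± 0.058 (edgeR adjusted p = 0.010).

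Arsb, which desulfates dermatan and chondroitin sulfate, had 16.7, 16.6, 19.3 and 19.1 CPM in AngII and 19.0, 22, 22.2 and 22.2 CPM in AngII+HNG. AngII+HNG replicate 1 lay within the AngII range, and the log2 fold change of 0.25 ± 0.074 did not pass (edgeR adjusted p = 0.066). Without that library the adjusted p was 0.028, and over all 23 alternatives it ran from 0.026 to 0.64. Ids, the iduronate sulfatase and the most highly expressed gene of this role, had 194, 176, 189.9 and 197 CPM in AngII, 182, 174, 167 and 181 CPM in AngII+HNG, and 184, 188, 182 and 189 CPM in AngII+MOTS-c. Its log2 fold change of -0.10 ± 0.044 was the lowest of the 46 genes (edgeR adjusted p = 0.22). Galns, which acts on keratan sulfate, had 20.2 to 22.1 CPM in AngII and a wider 17.7 to 24.5 CPM in AngII+HNG, with a log2 fold change of 0.07 and a 95% interval of -0.12 to 0.25.

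Of the 9 genes of lipid handling, 3 rose (33.3%) and 0 fell, with a median log2 fold change of 0.16. With 1 library left out, between 0 (without AngII replicate 1 or 3) and 5 (without AngII replicate 4) rose. Ppt1, a thioesterase that removes palmitate from proteins, had 57.3, 62.3, 57.9 and 65.0 CPM in AngII, 67.6, 72.1, 76.2 and 80.5 CPM in AngII+HNG, and 65.3, 60.5, 66.7 and 68.3 CPM in AngII+MOTS-c. The AngII+HNG libraries were above all AngII libraries but overlapped with AngII+MOTS-c. The log2 fold change against AngII was 0.29 ± 0.060 (edgeR adjusted p = 0.012), and the adjusted p rose to 0.058 without AngII replicate 1 and to 0.0503 without AngII replicate 3.

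Npc2, the soluble protein that hands cholesterol to Npc1, had 196, 202, 203 and 215 CPM in AngII and 215, 241, 244 and 235 CPM in AngII+HNG. The groups touched without overlapping, with a log2 fold change of 0.20 ± 0.047 (edgeR adjusted p = 0.026). Psap had 985, 993, 982 and 1017 CPM in AngII, 1068, 1078, 1173 and 1114 CPM in AngII+HNG, and 998, 974, 995 and 1042 CPM in AngII+MOTS-c. All AngII+HNG libraries were above the rest, with a log2 fold change of 0.16 ± 0.039 (edgeR adjusted p = 0.029). Calls for Npc2 and Psap were lost when AngII replicate 1, 2 or 3 or AngII+HNG replicate 4 was left out, and that of Npc2 also without AngII+HNG replicate 2, with adjusted p-values between 0.0575 and 0.112. Npc1, the membrane partner of Npc2, had a log2 fold change of 0.02, the sphingomyelinase Smpd1 one of 0.01 and the acid lipase Lipa one of -0.04, and none of these passed the test.

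None of the 2 acid phosphatases and the nuclease passed the edgeR test, although 2 of the 3 had an unadjusted p below 0.05. Dnase2, which degrades DNA in lysosomes, had 13.1, 15.9, 15.5 and 15.9 CPM in AngII and 17.2, 17.1, 18.2 and 22.7 CPM in AngII+HNG. The groups did not overlap, and the log2 fold change was 0.32 ± 0.098 (edgeR adjusted p = 0.080). DESeq2 called it, with an adjusted p of 0.043, and over the alternatives the adjusted p ran from 0.020 to 0.79. Acp5 had 3.20, 4.48, 4.04 and 4.35 CPM in AngII and 5.23, 5.14, 5.08 and 5.23 CPM in AngII+HNG, again with no overlap, and a log2 fold change of 0.37 ± 0.12 (edgeR adjusted p = 0.097). For Acp2, the lysosomal acid phosphatase with the highest FPKM of this role, 46.9 to 49.7 CPM in AngII overlapped with 45.8 to 54.0 CPM in AngII+HNG (log2 fold change 0.06, edgeR adjusted p = 0.63).

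Of the 5 membrane proteins, 2 rose (40.0%) and 0 fell, with a median log2 fold change of 0.20. Lamp1, a heavily glycosylated protein that lines the lysosomal membrane and whose upstream bases carry the 5 copies of CACGTG shown above, had 428, 434, 433 and 481 CPM in AngII, 509, 512, 487 and 536 CPM in AngII+HNG, and 454, 435, 463 and 467 CPM in AngII+MOTS-c. AngII replicate 4 was close to the lowest AngII+HNG library without reaching it. The log2 fold change was 0.21 ± 0.046 (edgeR adjusted p = 0.019). Mcoln1, a calcium-releasing cation channel of the lysosomal membrane, had 24.5, 25.6, 25.8 and 26.8 CPM in AngII, 27.8, 31.6, 33.5 and 31.3 CPM in AngII+HNG, and 28.0, 24.1, 28.7 and 28.8 CPM in AngII+MOTS-c. The AngII+HNG libraries were above those of AngII but not above those of AngII+MOTS-c, and the log2 fold change against AngII was 0.28 ± 0.062 (edgeR adjusted p = 0.019). Both calls were lost without AngII replicate 1, 2 or 3 or AngII+HNG replicate 2, and that of Lamp1 also without AngII+HNG replicate 4, with adjusted p-values between 0.0513 and 0.0813.

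Lamp2, the partner of Lamp1 that also serves chaperone-mediated autophagy, had 319, 314, 324 and 349 CPM in AngII and 374, 373, 328 and 420.3 CPM in AngII+HNG. AngII+HNG replicate 3 fell within the AngII range, and the log2 fold change of 0.20 ± 0.063 did not pass (edgeR adjusted p = 0.092). Lamp2 passed in 4 alternatives and not in 19, and the 4 included the fit without that library (edgeR adjusted p = 0.0086). Over the alternatives its adjusted p reached 0.58. Cd63 had 479, 511, 483 and 511 CPM in AngII and 504, 532, 633 and 554 CPM in AngII+HNG. Its lowest AngII+HNG library lay within the AngII range, with a log2 fold change of 0.17 ± 0.061 (edgeR adjusted p = 0.14). Scarb2, the receptor that carries glucocerebrosidase to the lysosome, had a log2 fold change of 0.12 (edgeR adjusted p = 0.18).

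**Figure D4:**
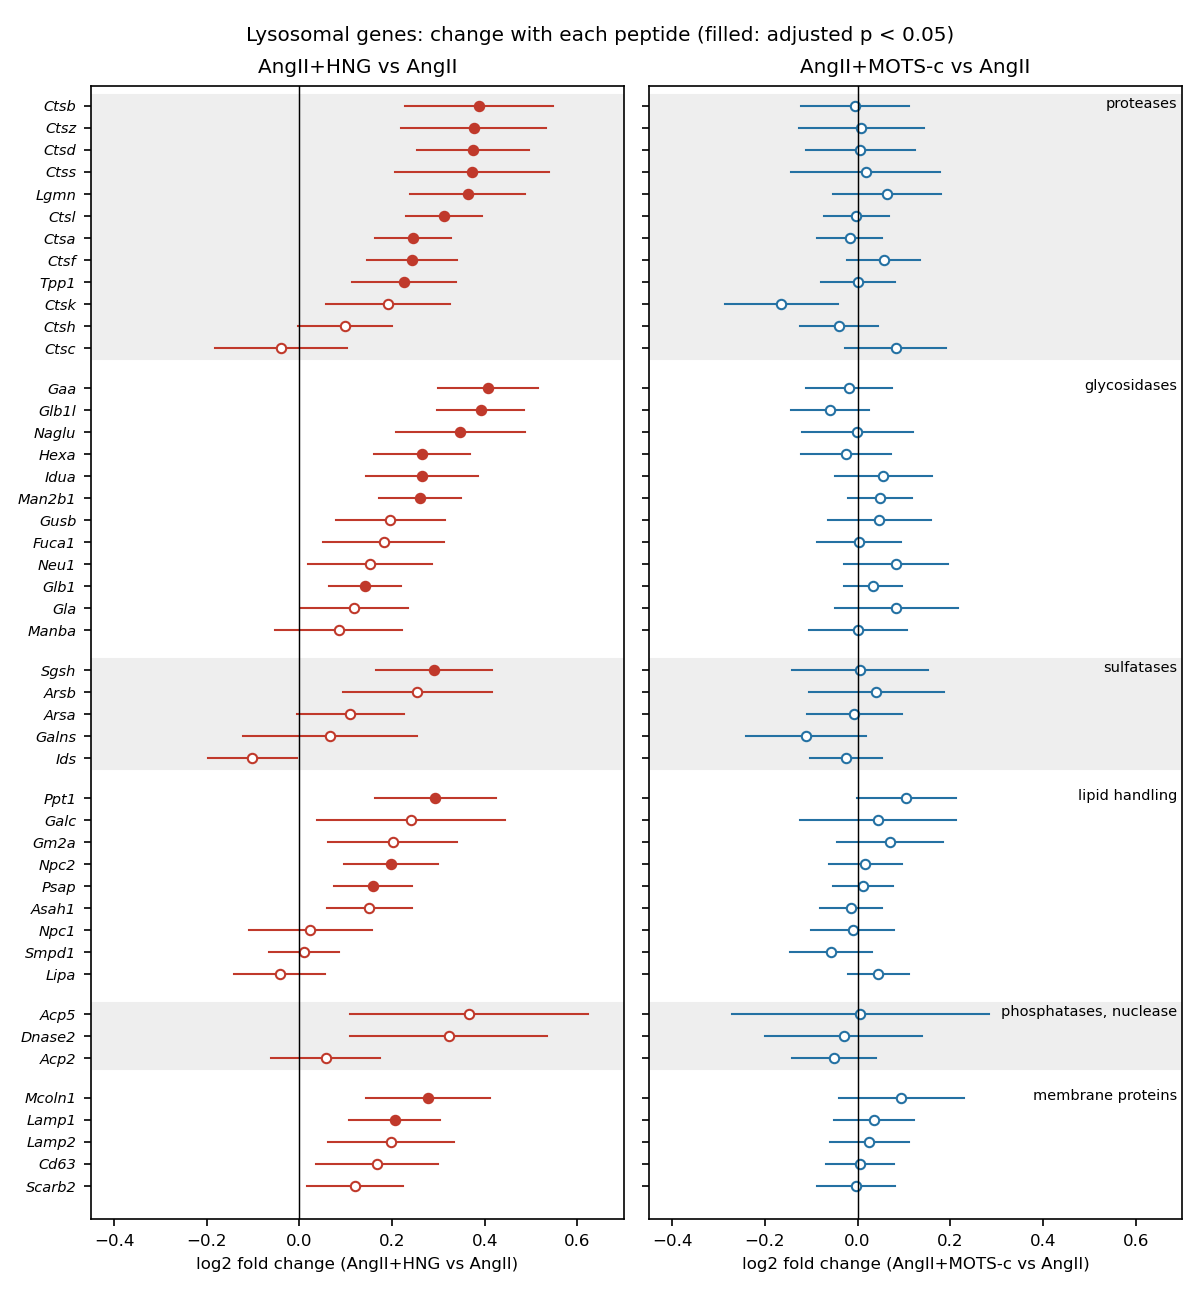
Log2 fold change (x axis) with its 95% interval for each of the 46 lysosomal genes, ordered within roles, with AngII+HNG against AngII on the left and AngII+MOTS-c against AngII on the right. Filled points have an adjusted p below 0.05, of which there are 22 on the left, all above 0, and 0 on the right; both panels use the same AngII libraries.

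Genes with and without CACGTG in the promoter window can be set beside these changes. Of the 10 genes with it, 8 rose with HNG, and of the 28 genes with a window but no copy, 10 rose. Median log2 fold changes were 0.25 and 0.19. Over all tested genes with a window, 4.39% of those with CACGTG and 3.20% of those without rose. The counts are small and were not tested. Cd63 and Galc, a galactosylceramidase, were the genes that had the sequence and did not pass the test.

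The comparison of AngII+MOTS-c with AngII gives the same readout for the other peptide. By edgeR, 0 of the 46 genes were called, against 0.00690% of 14488 genes tested (1 gene), and DESeq2 also called 0. At an unadjusted p below 0.05 there was 1 of 46, against 5.05% of all genes. Log2 fold changes ran from -0.16 to 0.10, with a median of 0.0054, and 28 were above 0 (49.6% over all genes). The groups overlapped in every gene, while over all genes 1.75% were above and 1.70% below without overlap. The 95% intervals of all 46 genes lay between -0.29 and 0.28. For 38 genes the upper bound of the MOTS-c interval was below the gene's own estimate with HNG. This is not a test of a difference, since it leaves out the SE of the HNG estimate. Both estimates also use the same AngII libraries.

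The gene with the smallest p in this comparison was Ctsk. It had 28.2, 27.0, 29.0 and 31.2 CPM in AngII+MOTS-c, against 30.4 to 34.5 CPM in AngII. The highest of the former overlapped with the lowest of the latter, and the log2 fold change was -0.16 ± 0.056. The edgeR p was 0.012 unadjusted and 0.92 adjusted. Next were Ppt1, Galns, Ctsc and Neu1, with log2 fold changes of 0.10, -0.11, 0.08 and 0.08 and unadjusted edgeR p-values of 0.054, 0.087, 0.13 and 0.13. In AngII+MOTS-c, Galns had 18 to 20.4 CPM, Ctsc 76.1 to 78.8 CPM and Neu1 29.8 to 33.1 CPM, each overlapping with AngII.

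AngII+HNG was also compared with AngII+MOTS-c. This comparison is not independent of the comparisons above, since it uses the same AngII+HNG and AngII+MOTS-c libraries, and the peptides were given at different doses. By edgeR, 17 of 46 genes were called higher in AngII+HNG (37.0%) and 0 lower, against 2.64% and 1.77% of 14448 genes tested (4.41% in either direction). The median log2 difference was 0.18. Groups did not overlap in 22 genes that were higher with HNG, against 6.44% of all genes, and in 1 that was lower, Ids, against 6.07%. The count was 10 without AngII+MOTS-c replicate 1, 8 without replicate 2 and 11 without replicate 3. Over all genes, 198, 196 and 253 were higher in these fits, against 381.

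Among the proteases, 10 of 12 were called higher in AngII+HNG, as were 5 of 12 glycosidases, 1 of 9 genes of lipid handling and 1 of 5 membrane proteins, with 0 among the sulfatases and the phosphatases and nuclease. The 10 proteases became 6 without AngII+MOTS-c replicate 1, 4 without replicate 2 (Ctsl, Ctsd, Ctsa and Ctsk) and 7 without replicate 3. Ctsf was called in 1 of the 8 fits that left out a library, with edgeR adjusted p between 0.0565 and 0.159 in the others. Glb1l differed by 0.45 ± 0.046 on the log2 scale (edgeR adjusted p = 3.2e-04), Gaa by 0.42 ± 0.048 (edgeR adjusted p = 5.7e-04) and Ctsl by 0.31 ± 0.038 (edgeR adjusted p = 7.4e-04). Ctsd followed with 0.37 ± 0.056 and Hexa with 0.29 ± 0.044 (edgeR adjusted p = 0.0031 for both). In all 5, every AngII+HNG library was above every AngII+MOTS-c library.

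Of the 22 genes that rose with HNG against AngII, 15 also passed against MOTS-c. Glb1, Idua, Sgsh, Psap, Ppt1, Npc2 and Mcoln1 passed only against AngII, which does not show that their 2 differences were unequal. Of these, Sgsh also passed against MOTS-c without AngII+HNG replicate 3 (edgeR adjusted p = 0.027) or AngII+MOTS-c replicate 4 (0.030), and Npc2 and Ppt1 did so without AngII+HNG replicate 1 (0.017 and 0.043). Over all 23 alternatives, Sgsh and Npc2 passed against MOTS-c in 6 each, Psap in 3, Ppt1 in 2 and Mcoln1 in 0. Ctsk and the ceramidase Asah1 passed against MOTS-c and not against AngII. For Asah1 the log2 difference was 0.16 ± 0.041 between the peptides (edgeR adjusted p = 0.044) and 0.15 ± 0.043 against AngII (edgeR adjusted p = 0.057), and either comparison called it in 10 of 23 alternatives. Its call against MOTS-c held without AngII+HNG replicate 3 (edgeR adjusted p = 0.0081) and was lost without any 1 of the other 7 libraries, with edgeR adjusted p between 0.0853 and 0.133. For Ctsk the log2 difference between the peptides was 0.35 ± 0.065 (edgeR adjusted p = 0.0085), with no overlap between 27.0 to 31.2 and 34.1 to 40.5 CPM. For Man2b1 it was 0.21 ± 0.042 (edgeR adjusted p = 0.013) and for Lamp1 0.17 ± 0.042 (edgeR adjusted p = 0.040). Leaving out AngII+MOTS-c replicate 1, 2 or 3 ended both calls, as did leaving out AngII+HNG replicate 1, 2 or 4 for Lamp1, with adjusted p-values between 0.0526 and 0.139.

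Further genes of the lysosomal pathway were measured alongside. Of 24 other lysosomal genes, 4 rose with HNG against AngII (16.7%, against 3.40% of all genes) and 0 fell, with a median log2 fold change of 0.10. Among these was Aga, an aspartylglucosaminidase, with 54.8, 57.3, 62.0 and 64.4 CPM in AngII and 67.5, 69.6, 80.5 and 73.1 CPM in AngII+HNG. The groups did not overlap, and the log2 fold change was 0.29 ± 0.065 (edgeR adjusted p = 0.020).

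Of 13 genes for the sorting of lysosomal enzymes, 1 rose and 0 fell (7.69%, against 5.98% of all genes called), with a median of 0.08. This was Gnptab, part of the phosphotransferase that makes the mannose 6-phosphate tag, which had 44.8, 43.3, 43.0 and 46.9 CPM in AngII and 52.4, 48.3, 51.1 and 55.1 CPM in AngII+HNG (log2 fold change 0.22 ± 0.052, edgeR adjusted p = 0.027). Nagpa, which uncovers the tag, and the adaptor Gga2 had log2 fold changes of 0.23 and 0.13 (edgeR adjusted p = 0.10 and 0.14). Of 16 V-ATPase genes, 4 rose (25.0%, against 3.40% of all genes) and 0 fell, all 16 were above 0, and the median was 0.11. The subunit Atp6v1d and the accessory proteins Atp6ap2 and Atp6ap1 had log2 fold changes of 0.28 ± 0.057, 0.25 ± 0.052 and 0.17 ± 0.039 (edgeR adjusted p = 0.012, 0.012 and 0.018).

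None of the 4 TFEB family transcripts passed edgeR's test, and 0 had an unadjusted p below 0.05. Tfeb had 14.8, 13.2, 13.5 and 14.2 CPM in AngII and 13.6, 15.4, 16.7 and 14.3 CPM in AngII+HNG, which overlapped (log2 fold change 0.11, 95% interval -0.06 to 0.28). Tfe3 had 50.6, 53.9, 50.4 and 51.7 CPM in AngII and 47, 49.3, 49.5 and 49.8 CPM in AngII+HNG. These did not overlap, and the log2 fold change was -0.08 with a 95% interval of -0.17 to 0.02. Mitf had 9.50 to 10.4 and 9.88 to 11.8 CPM, and Tfec 4.32 to 6.25 and 4.47 to 6.19 CPM, in AngII and AngII+HNG. Transcript levels say nothing of where these proteins are in the cell.

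Lysosomal genes are also highly expressed in macrophages, and macrophage transcripts moved with the groups. Of 18 markers, 17 were tested. By edgeR, 6 rose with HNG against AngII (35.3%) and 0 fell, against 3.40% and 2.58% of all genes. At an unadjusted p below 0.05 there were 12, against 20.3% of all genes, and the median log2 fold change was 0.31. The summed level of the 18 was 342 to 414 CPM in AngII, 453 to 590.0 CPM in AngII+HNG and 336 to 406 CPM in AngII+MOTS-c. Replicate 4 was the highest library of each group for this sum, as it was for the lysosomal genes. Lyz2, lysozyme, and Cd68 had the largest log2 fold changes of those that rose, 0.75 ± 0.080 and 0.69 ± 0.11. The others that rose were Mrc1, Spi1, Cd53 and Ptprc, with log2 fold changes of 0.55, 0.49, 0.41 and 0.37, and 14 of the 17 were above 0. The proteins of Lyz2, Cd68 and Laptm5 are found in lysosomes. The markers C1qa, C1qb, C1qc and Adgre1 were low, with 1.23 to 8.19 CPM over all libraries of AngII and AngII+HNG, and none of these passed the test. Cd163, at 0 to 0.55 CPM, was removed by the filter on low counts. Values of the other markers that did not pass are not reported here.

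With the mean log2 level of the macrophage markers as a covariate, 3 of the 46 lysosomal genes rose with HNG against AngII by edgeR, Ctsl, Glb1l and Gaa, and 43 were above 0 with a median log2 fold change of 0.14. Calls fell over all genes as well, from 494 to 58 of 14524 that rose. Without Cd68, Laptm5 and Lyz2 in the covariate, a choice made after seeing the data, 9 rose and the median was 0.16, and over all genes 150 rose. For HNG against MOTS-c these covariates left 3 and 7 lysosomal genes higher, and 81 and 165 over all genes against 381 without a covariate. The 15 other macrophage markers summed to 199.6 to 239 CPM in AngII and 227 to 308 CPM in AngII+HNG, which overlapped, and their mean sum was 23.5% higher with HNG. For all 18 markers it was 38.2% higher. In bulk samples, a different number of cells of a type and a different amount of RNA per cell cannot be told apart.

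**Figure D5:**
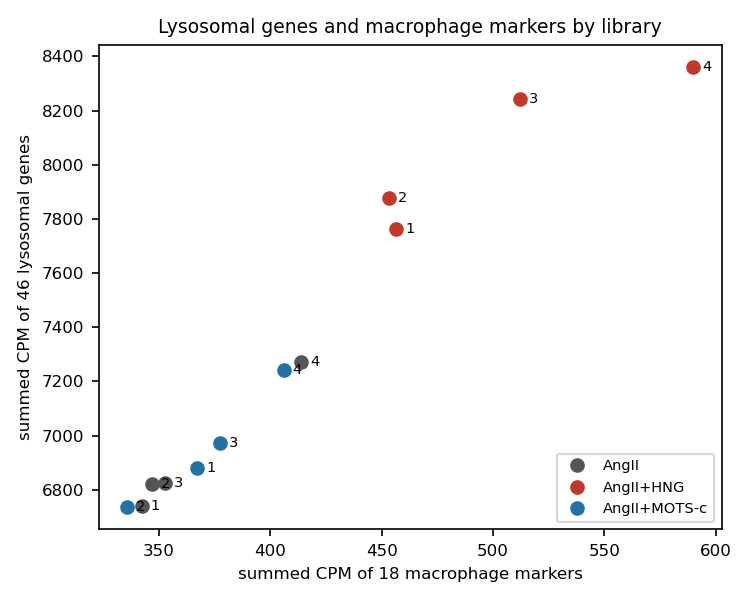
Summed CPM of the 46 lysosomal genes (y axis, not from 0) against summed CPM of 18 macrophage markers (x axis, not from 0) in each of the 12 libraries, with replicate numbers beside the points. The 4 AngII+HNG libraries lie above the others on both axes, from 453 CPM of macrophage markers and 7762 CPM of lysosomal genes on.

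Markers of other cell types were measured in the same way. Of 10 endothelial markers, 4 rose with HNG and 0 fell, and their sum was 80.1 to 90.5 CPM in AngII and 103 to 113 CPM in AngII+HNG. Of 8 markers of smooth muscle and pericytes, 3 fell and 0 rose, with sums of 1393 to 1485 and 1156 to 1248 CPM. Fibroblast markers rose in 2 of 12 and cardiomyocyte markers in 1 of 10, and their sums overlapped between the groups. The part of these markers in the changes of the lysosomal genes was not tested.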

How the data were processed

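Libraries were prepared from total RNA with an mRNA library kit. The submitters' processing notes name HISAT2, Picard 1.41 and SAMtools 0.1.18. The counting tool, genome build, annotation and use of strand are not given in the sources used here, so reads shared with overlapping or near-identical genes cannot be assigned. The authors deposited raw counts per gene and FPKM for the same 12 libraries. Genes were matched by symbol. Samples were grouped by their titles.

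Counts of the 8 libraries of each comparison were filtered with filterByExpr, scaled by TMM and tested with edgeR 4.0.16 in R 4.3.3 (glmQLFit, glmQLFTest), with Benjamini-Hochberg adjustment over all genes. Intervals are 95% intervals from the same model. DESeq2 1.42.0 and limma 3.58.1 on log2(FPKM + 1) were among the alternatives, together with other scalings and filters, blocks, covariates and leaving out each library. The scripts were tested on simulated data.

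The genes, lists and tests were chosen with earlier results of these data known. Values, for some genes as ranges or for 2 of the 3 groups, are given for the 3 smallest adjusted p-values (AngII+HNG against AngII) and the highest FPKM of each of 6 roles, and for the 5 smallest p-values of each of the other 2 comparisons. Of the other lysosomal lists the 3 smallest adjusted p-values, and all TFEB family genes, are given, except for some genes that are not reported here. Further genes that complete a count were chosen for naming with their values in view. No test was run on a list as a whole. Promoter sequences are from RefSeq (GRCr8). Protein sequences were not analysed here.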

Additional observations from a re-analysis of the deposited data

Results flagged for a closer look

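In 10 of 78 groups of 4 libraries checked, 1 library stood far from the other 3 by Dixon's criterion, and chance alone marks about 1 in 20 groups. AngII replicate 4 was high for Ctsd (591 CPM, against 509 to 522), Lamp1 (481 CPM, against 428 to 434), Hexa (86.8 CPM, against 77.6 to 77.7) and the summed level of the 46 lysosomal genes (7273 CPM, against 6741 to 6825). AngII replicate 1 was low for Dnase2 (13.1 CPM, against 15.5 to 15.9). In AngII+HNG, replicate 3 was low for Sgsh (30.7 CPM, against 35.8 to 36.2) and replicate 1 for Arsb (19.0 CPM, against 22 to 22.2). In AngII+MOTS-c, replicate 2 was low for Arsb (17.5 CPM, against 18.6 to 18.8) and Mcoln1 (24.1 CPM, against 28.0 to 28.8), and replicate 4 was high for Lamp2 (353 CPM, against 323 to 327).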

How the results depend on the processing

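Of 23 alternatives to each comparison, none called any of the 46 genes lower. The number that rose with HNG against AngII was 22 as reported, 14 by limma on log2(FPKM + 1) with no filter, 3 with the macrophage score as covariate and 9 with that score without Cd68, Laptm5 and Lyz2. Over all genes, 494 rose as reported, and 319, 58 and 150 in these settings. For HNG against MOTS-c it was 17 as reported, and 10, 3 and 7 in the same settings, with 381, 219, 81 and 165 over all genes. Leaving out each library in turn gave 13 to 25 and 8 to 20. MOTS-c against AngII gave 0 in all 23. Median log2 fold changes lay between 0.14 and 0.25, 0.14 and 0.21, and -0.0065 and 0.029. Ctsl, Glb1l and Gaa were called in all 23 alternatives of both HNG comparisons, and 10 and 8 genes in all except those with a macrophage covariate. The cause of the lower counts was not tested. Leaving out 1 library also leaves fewer samples. Samples were not treated as pairs by replicate number, since correlations of same-numbered deviations were not above 0.1 in every pair. They were -0.028, -0.028, 0.010 and 0.12 for replicates 1 to 4 in HNG against AngII, 0.075, 0.020, 0.071 and 0.13 in MOTS-c against AngII, and -0.0096, 0.11, 0.10 and 0.25 in HNG against MOTS-c. Replicate 4 was above 0.1 and correlated best with its own number in all 3 comparisons, and in HNG against MOTS-c 3 of 4 did. A fit with the replicate number as a block gave 28, 24 and 0 genes in HNG against AngII, HNG against MOTS-c and MOTS-c against AngII, a block built from library-name numbers instead 28, 16 and 0, and summing replicates 2 and 3 into 1 sample 15, 13 and 0. Over all genes 623, 625 and 327 rose in these fits in HNG against AngII, and 634, 311 and 285 in HNG against MOTS-c. By library name, AngII+MOTS-c replicate 1 has number 2, while replicate 1 of AngII and of AngII+HNG has number 1. In both MOTS-c comparisons each replicate 1 is thus alone in its library-name block and adds nothing to the difference. Acp5 had the fewest counts (118 to 196) and, in AngII+HNG against AngII, the largest SE (0.12).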

Other observations

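The extended E-box TCACGTG, or CACGTGA on the other strand, overlaps CACGTG and was present in the promoter windows of 8 of 38 lysosomal genes (21.1%), against 3.41% of all windows and 5.40% of those of tested genes. Of these 8 genes, 7 rose with HNG against AngII, as did 11 of the 30 with a window and no copy, and over all tested genes 5.76% with it and 3.17% without it rose. The CLEAR palindrome, which extends this sequence on both sides, was present in 1 of 38 windows (Galc, which did not pass the test), against 0.280% of all windows. Over all tested genes, 1.75% with it and 3.32% without it rose. These shares are descriptions and were not tested.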
